A study of Mus musculus with 63 samples.

Results

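The Na/K-ATPase subunit isoforms described here were Atp1a4, Atp1b1, Atp1b2 and Atp1b3, chosen by symbol, which made up 4 of the 20183 genes in the deposited expression table. The table held 63 single cells aspirated from cortical layer 2/3 in V1, the primary visual area, of wild type C57BL/6 mice aged 70 days, each cell imaged with a calcium dye while a drifting grating was shown. Light-sensitive (LS) cells had responded to most presentations and non-light-sensitive (NS) cells to at most a single presentation, and both groups came from untreated mice of the same strain and genotype. Each soma was sucked into a pipette and its polyadenylated RNA was amplified by Smart-seq2, a full-length protocol that carries no molecular identifiers and no strand mark. After the study's filters were rebuilt from the deposited values, 47 cells remained, of which 35 were LS and 12 were NS. The labels tie no cell to a mouse, so each group counted as 1 sample. No difference was therefore tested, and each SD below is the spread between cells.

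The Na/K-ATPase is the membrane pump that exports sodium and imports potassium at the cost of ATP, and neurons depend on it to restore their ion gradients after firing. The alpha subunit carries the catalytic and ion-binding sites, and the beta subunit is a glycoprotein that the alpha subunit needs to fold, reach the cell surface and bind potassium with the right affinity. The alpha isoform encoded by Atp1a4 is best known from sperm. Among the beta isoforms, that of Atp1b1 is the main one of neurons, that of Atp1b2 was first described as an adhesion molecule on glia, and that of Atp1b3 is found in many tissues.

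In the GRCm38 annotation all 4 genes lay on the minus strand: Atp1a4 (ENSMUSG00000007107) at chr1:172223513-172258414, Atp1b1 (ENSMUSG00000026576) at chr1:164437109-164458355, Atp1b2 (ENSMUSG00000041329) at chr11:69599736-69605942 and Atp1b3 (ENSMUSG00000032412) at chr9:96332655-96364442. The last 617 bases of Atp1b1 overlapped Nme7 on the opposite strand, and the annotated gene Gm37950 overlapped Atp1a4 on the opposite strand, so reads from these stretches cannot be assigned to a strand in these libraries.

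The RefSeq promoter windows (GRCm38.p6, from 250 bases before to 50 bases after the annotated start, printed 5′ to 3′ on the strand of the gene) are shown for the isoform with the lowest and the isoform with the highest mean in LS cells. Capitals mark every CG dinucleotide. The Atp1a4 window spans chr1:172258375-172258674 and the Atp1b1 window chr1:164458306-164458605.
Atp1a4: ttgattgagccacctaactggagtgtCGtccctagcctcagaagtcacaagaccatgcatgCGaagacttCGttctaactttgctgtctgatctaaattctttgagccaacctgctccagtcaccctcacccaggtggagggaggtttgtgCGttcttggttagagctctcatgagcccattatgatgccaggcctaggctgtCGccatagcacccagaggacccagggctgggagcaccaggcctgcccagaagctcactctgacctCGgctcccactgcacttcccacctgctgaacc
Atp1b1: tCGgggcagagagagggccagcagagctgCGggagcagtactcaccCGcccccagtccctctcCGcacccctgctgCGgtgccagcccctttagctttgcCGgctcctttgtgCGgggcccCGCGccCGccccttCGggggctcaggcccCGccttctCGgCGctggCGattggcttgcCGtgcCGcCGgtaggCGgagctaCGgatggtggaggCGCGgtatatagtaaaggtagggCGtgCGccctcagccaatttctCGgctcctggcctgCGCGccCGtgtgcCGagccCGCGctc
The Atp1a4 window held 6 CG dinucleotides and the Atp1b1 window held 31, against a median of 7 over 32851 promoter windows of this length. At least as many were found in 56.4% of all windows for Atp1a4 and in 10.6% for Atp1b1. Both Atp1b3 windows were also rich in CG, with 34 and 39 occurrences, counts reached by 7.73% and 4.45% of all windows. Only these sequences were described, and no measurement here reports on promoter activity.

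Before any comparison, the cells were checked against marker genes, since the groups differed in more than light response. Reads on the listed genes, recovered from the steps of the deposited values, ranged from 382184 to 2549797 per LS cell (median 936029) and from 156692 to 902933 per NS cell (median 335724). The summed FPKM (fragments per kilobase of exon and unit of sequencing depth) of the neuronal markers Snap25, Syt1, Rbfox3 and Tubb3 had a median of 678 over the LS cells and of 2.22 over the NS cells, and it was under 20 FPKM in 9 of 12 NS cells against 3 of 35 LS cells. The mean FPKM of odorant, vomeronasal and taste receptor genes, which cortical neurons are not known to use, reached at least 10% of the level of an even spread of reads over all exons in 9 of 12 NS cells and 4 of 35 LS cells. All 8 astrocyte markers had a read in some cell of both groups, and their summed median was 108 FPKM (range 17.8 to 1249) for LS and 143 FPKM (range 0 to 2421) for NS. The part of these differences in the results below was not tested beyond the values given beside each result.

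Atp1b1 was the most abundant isoform in LS cells and was listed at 0 in most NS cells. In the 35 LS cells its level ran from 0 through a median of 244 to 571 FPKM, with a mean of 222 ± 144 FPKM (SD over cells). In the 12 NS cells it ran from 0 through a median of 0 to 229 FPKM, with a mean of 25.3 ± 65.8 FPKM. Only 3 NS cells held any Atp1b1 read, at 229, 49.8 and 24.8 FPKM, and no NS cell reached the LS median. The highest NS cell lay below 19 of the 35 LS cells and the next NS cell below 29 of them, although all NS values fell within the LS range.

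The ratio of the mean Atp1b1 level in LS to that in NS cells was 8.80 (log2 3.14), and the difference of 197 FPKM was larger than the SD of either group. As background, 33.8% of the 16760 genes that averaged 1 FPKM or more in either group were at least 2 times higher in LS cells and 38.9% were at least 2 times lower, so a 2-fold difference was common between these groups. NS_12 carried 80.5% of the 915 Atp1b1 reads of the NS group, and without it the log2 ratio was 5.03. Atp1b1 was detected with at least 1 read in 34 of the 35 LS libraries (97.1%; exact binomial 95% interval, 85.1% to 99.9%). Among NS cells it was detected in 3 of 12 (25%; 5.49% to 57.2%). With every cell thinned to 100000 reads the expected shares were 93.0% and 25%. At 200000 reads, which only 9 NS cells reached, they were 94.1% and 33.3%. Only total reads were matched in this way. The intervals here and below cover counting error only, since amplified reads without molecular identifiers are not independent molecules.

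Of the 3 NS cells with at least 100 FPKM of summed neuronal markers, 2 held an Atp1b1 read. Among the other NS cells only NS_14 held any. Whether Atp1b1 and these markers go together in NS cells was not tested. NS_12 and NS_16 had 269 and 387 FPKM of summed neuronal markers beside their 229 and 24.8 FPKM of Atp1b1. NS_13 had the most, at 1101 FPKM, and no Atp1b1 read, while NS_14 had 49.8 FPKM of Atp1b1 beside 0.859 FPKM of neuronal markers. Among cells with at least 100 FPKM of these markers, a limit chosen after the values were seen, the mean of Atp1b1 was 240 FPKM over 30 LS cells against 84.4 FPKM over 3 NS cells (log2 ratio 1.51). The difference kept its direction. This set left out the NS cells with fewer of these markers, of which only NS_14 held an Atp1b1 read. The NS values in it were 229 FPKM in NS_12, 24.8 FPKM in NS_16 and 0 in NS_13. Why the ratio was smaller in this set was not tested. All 3 NS cells were GABA-marked, whereas most LS cells were glutamate-marked. Among cells whose receptor genes stayed under 10% of an even spread (31 LS and 3 NS), the log2 ratio was 3.13.

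**Figure D1:**
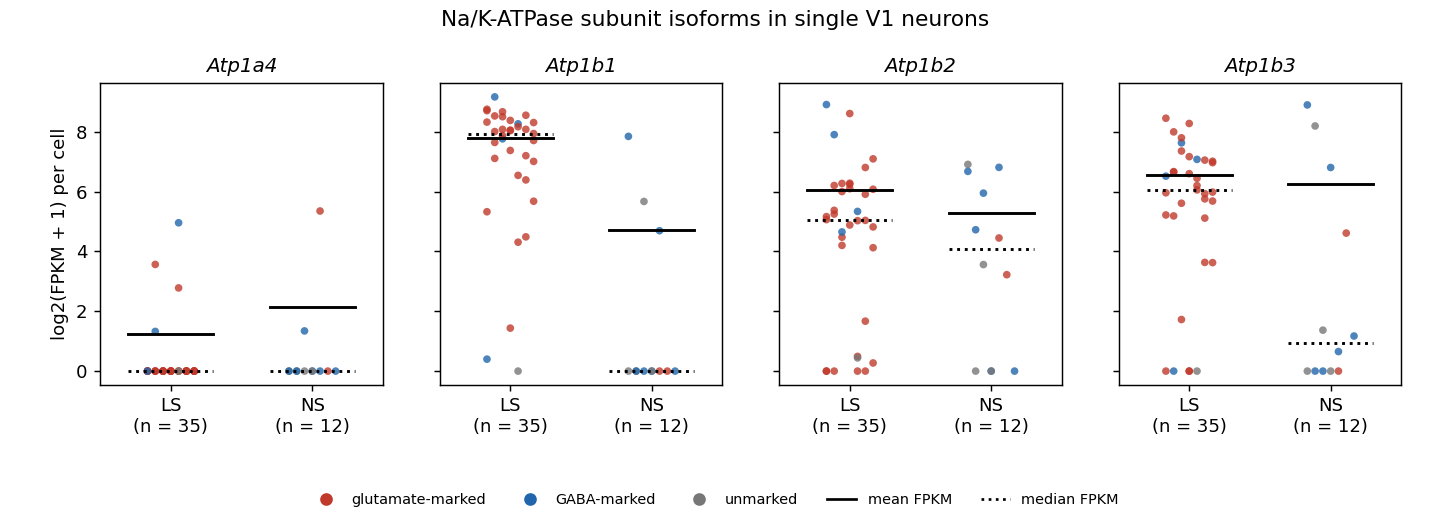
Level of each isoform in every cell, as log2(FPKM + 1), for 35 LS and 12 NS cells; each point is a cell, coloured by its glutamate or GABA markers, with a solid line at the mean FPKM and a dotted line at the median FPKM of the group. Atp1b1 has a median of 244 FPKM in LS cells and 0 in NS cells, whereas the points of Atp1b2 and Atp1b3 overlap widely and most cells have no Atp1a4.

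Atp1b2 differed less between the groups. It ran from 0 through a median of 32.4 to 478 FPKM in LS cells (mean 65.5 ± 104 FPKM) and from 0 through a median of 15.8 to 119 FPKM in NS cells (mean 38.1 ± 46.9 FPKM). Reads were found in 30 of 35 LS cells (85.7%, interval 69.7% to 95.2%) and 8 of 12 NS cells (66.7%, interval 34.9% to 90.1%), and 4 NS cells lay above the LS median. The ratio of means was 1.72 (log2 0.78), short of 2-fold and smaller than the spread between cells. The direction was not stable, since the log2 ratio was -0.43 among cells with at least 100 FPKM of neuronal markers (30 LS and 3 NS). Within LS cells the level was skewed, with 5 of 35 cells over 100 FPKM.

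Atp1b3 showed similar means and different typical cells. In LS cells it ran from 0 through a median of 65.4 to 348 FPKM (mean 92.1 ± 87.8 FPKM), and in NS cells from 0 through a median of 0.912 to 474 FPKM (mean 75.2 ± 152 FPKM). NS_12 with 474 FPKM and NS_4 with 291 FPKM set the NS mean, and 75.9% of the NS reads lay in NS_12. The ratio of means was 1.22 (log2 0.29), whereas the log2 ratio of the medians was 6.16. Without NS_12 the log2 ratio of means was 1.24. It was -0.34 from pooled reads and -1.04 among cells with at least 100 FPKM of neuronal markers (30 LS and 3 NS). The latter value rested on NS_12, since NS_13 was at 0 and NS_16 at 0.572 FPKM. Reads were found in 30 of 35 LS cells (85.7%, interval 69.7% to 95.2%) and 7 of 12 NS cells (58.3%, interval 27.7% to 84.8%), and 3 NS cells lay above the LS median. Thinned to 100000 reads, the shares were 84.04% and 40.4%.

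Atp1a4 was near the limit of detection in both groups. It was read in 4 of 35 LS cells (11.4%, interval 3.20% to 26.7%), at 30.04, 10.8, 5.87 and 1.51 FPKM, and in 2 of 12 NS cells (16.7%, interval 2.09% to 48.4%), at 39.8 and 1.54 FPKM. All other cells were listed at 0, so both medians were 0. The LS mean was 1.38 ± 5.40 FPKM and the NS mean 3.44 ± 11.4 FPKM, from 98 and 49 reads. The log2 ratio of -1.32 passed 2-fold, but it rested on NS_8, which held 48 of the 49 NS reads, and was 3.30 without that cell. Without LS_9 it was -2.68.

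The highest Atp1a4 values lay in cells with a high receptor-gene level. LS_9 and LS_4, with the highest LS values, had receptor genes at 30.96% and 18.7% of an even spread, and NS_8 had them at 113%. Over the 35 LS cells the Pearson correlation of log2(FPKM + 1) between Atp1a4 and the receptor-gene mean was 0.67, given as a description over cells that differ in depth. LS_28, with 5.87 FPKM of Atp1a4, and LS_14, with 1.51 FPKM, were at 6.91% and 0.156% of an even spread. The reverse did not hold in NS cells, where NS_15, NS_11 and NS_7 had receptor genes at 200%, 105% and 95.6% and no Atp1a4 read. The members of the family differed in how many of the 35 LS cells held them above the receptor mean of the same cell. This was so for Atp1b1 in 33 cells, Atp1b3 in 30, Atp1b2 in 28 and Atp1a4 in 4. Reads of these isoforms were found in 34, 30, 30 and 4 LS cells, so the counts mostly followed detection.

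**Figure D2:**
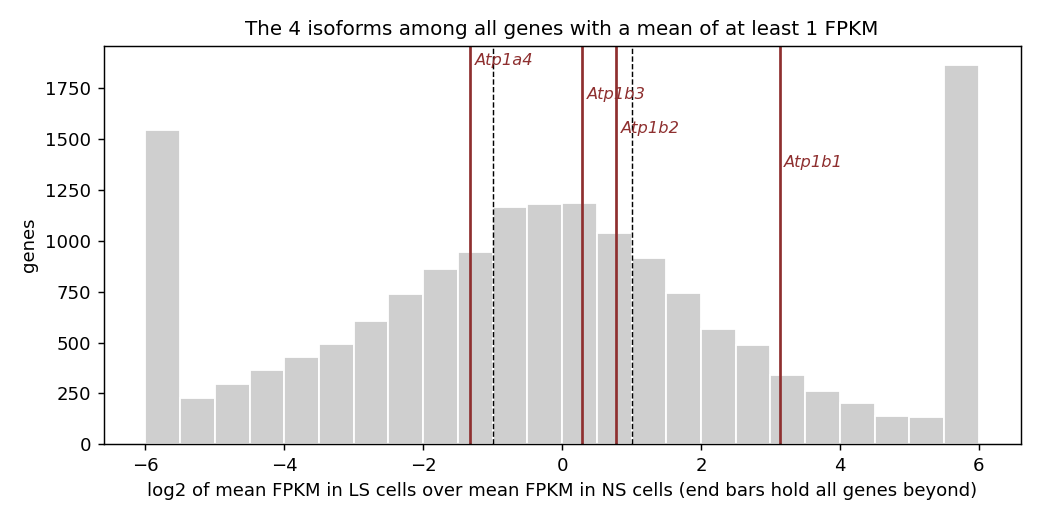
Histogram of the log2 ratio of the mean FPKM in LS cells to that in NS cells over 16760 genes with a mean of at least 1 FPKM in either group, with dashed lines at 2-fold and the 4 isoforms as red lines; the end bars collect all genes beyond. Atp1b1 (3.14) lies to the right of the 2-fold line, Atp1a4 (-1.32) to the left, and Atp1b2 (0.78) and Atp1b3 (0.29) between the lines.

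Because FPKM is scaled by exon length, the isoforms could also be compared with each other. By mean level in LS cells the order was Atp1b1 (222 FPKM), Atp1b3 (92.1 FPKM), Atp1b2 (65.5 FPKM) and Atp1a4 (1.38 FPKM). Atp1b3 and Atp1b2 differed by less than the spread between cells. Of the 20179 genes with a unique name, 148 had a higher mean than Atp1b1 in LS cells (0.733%), 496 a higher mean than Atp1b3 and 714 a higher mean than Atp1b2. In NS cells 2303 genes (11.4%) had a higher mean than Atp1b1, and the leading isoform was Atp1b3, with 457 genes above it.

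Within single LS cells Atp1b1 made up on average 56.6 ± 29.9% of the summed FPKM of the 3 beta isoforms, Atp1b3 25.1 ± 22.02% and Atp1b2 18.2 ± 24.4% (SD, n = 35 cells). Atp1b1 led in 26 cells, Atp1b3 in 5 and Atp1b2 in 4, and 25 of the 35 cells held reads of all 3. The summed level was less variable, relative to its mean, than any single isoform, with a mean of 380 ± 153 FPKM. A sum of values that do not rise together has a lower relative spread by arithmetic, so no steady total can be read from this. In the 11 NS cells with any beta read the mean shares were 11.5 ± 24.7% for Atp1b1, 48.9 ± 46.4% for Atp1b2 and 39.6 ± 46.6% for Atp1b3. Of the FPKM summed over NS cells the shares were 18.2%, 27.5% and 54.3%, which puts Atp1b3 before Atp1b2. NS_11 counted as fully Atp1b3 from 1 read. Atp1b2 and Atp1b3 each led in 5 NS cells and Atp1b1 in 1. All 3 isoforms were read together in 3 of 12 NS cells, and 7 NS cells held a single isoform, which was Atp1b2 in 4 and Atp1b3 in 3.

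**Figure D3:**
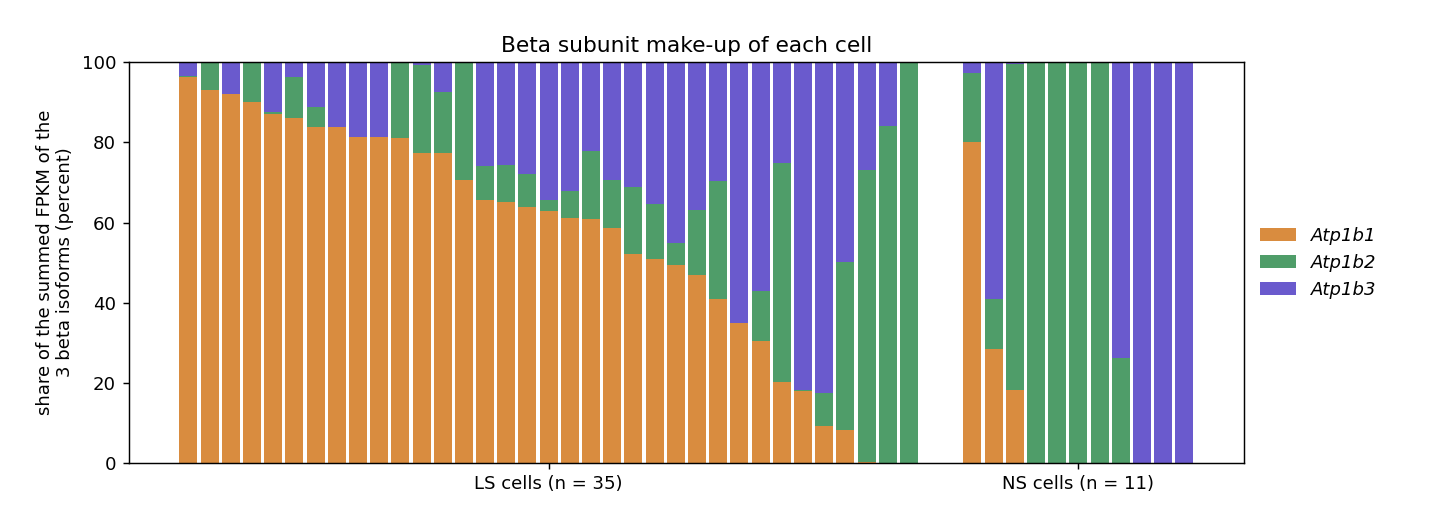
Share of the summed FPKM of Atp1b1, Atp1b2 and Atp1b3 that each isoform makes up, in percent; each bar is a cell, for 35 LS cells and the 11 NS cells with any beta read, ordered by the Atp1b1 share. Atp1b1 is the leading isoform in 26 LS bars and 1 NS bar, and many NS bars show a single isoform.

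The beta isoforms did not vary together across LS cells. Pearson correlations of log2(FPKM + 1) over the 35 LS cells were -0.15 between Atp1b1 and Atp1b2, -0.08 between Atp1b1 and Atp1b3 and 0.02 between Atp1b2 and Atp1b3, values too weak to describe a relation in data this sparse. With Atp1b1 the correlations were 0.65 for Snap25, 0.59 for Syt1, 0.51 for Rbfox3 and 0.48 for Tubb3, and 0.49 for the number of genes over 1 FPKM. With the same markers Atp1b2 gave values between 0.01 and 0.28 and Atp1b3 between -0.24 and -0.12. All cells share their amplification and depth differences, so these values are descriptions.

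**Figure D4:**
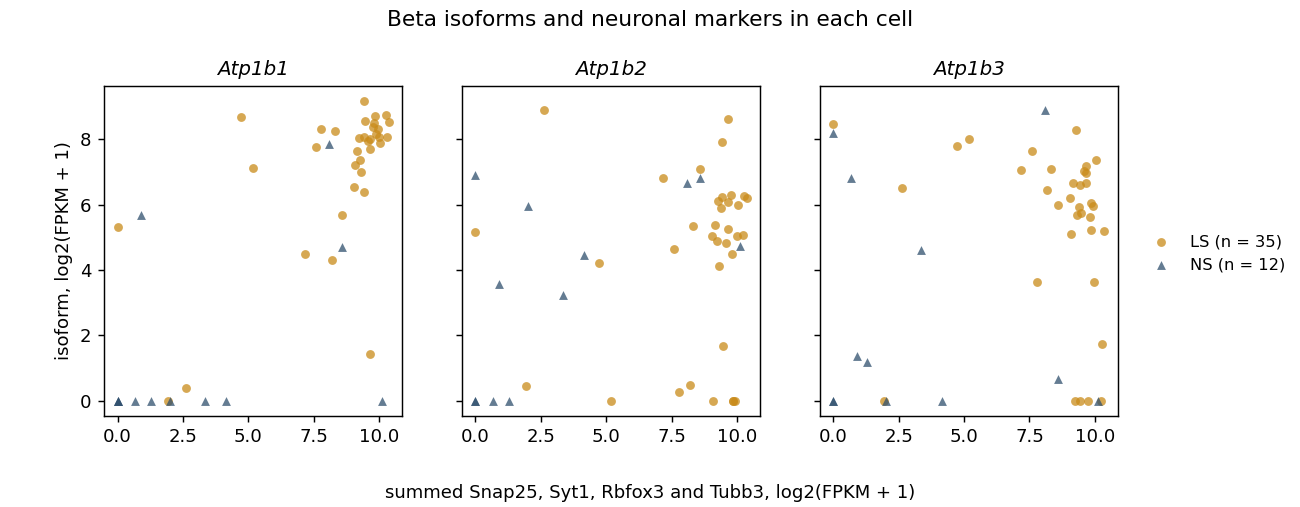
Level of each beta isoform against the summed level of the neuronal markers Snap25, Syt1, Rbfox3 and Tubb3 in the same cell, both as log2(FPKM + 1), for 35 LS cells (circles) and 12 NS cells (triangles). Most LS cells lie at the upper right for Atp1b1, and 9 NS cells lie under 20 FPKM of neuronal markers.

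The LS cells were next divided by transmitter markers. A cell was called glutamate-marked when Slc17a7, the vesicular glutamate transporter, and Neurod2 together had more FPKM than Gad1 and Gad2, the enzymes of GABA synthesis, and GABA-marked in the opposite case. This gave 30 glutamate-marked and 4 GABA-marked LS cells, with 1 cell that had none of these genes. The 4 GABA-marked cells were LS_9, LS_14, LS_15 and LS_39, so each value in this class weighs heavily.

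Atp1b2 was the only beta isoform whose class means differed by more than 2-fold, a difference within the spread between cells that was smaller without LS_39. In the GABA-marked LS cells it was 478, 238, 39.4 and 24.1 FPKM (mean 195 ± 213 FPKM), and in the 30 glutamate-marked LS cells it ran from 0 through a median of 32.1 to 388 FPKM (mean 50.4 ± 72.9 FPKM). The glutamate-marked mean was 3.87 times lower (log2 -1.95), with 3 of the 4 GABA-marked cells above the glutamate-marked median. As background, 23.2% of the 14454 genes compared were at least 2 times lower in the glutamate-marked cells and 46.2% at least 2 times higher. Without LS_39 the ratio was -0.996 on the log2 scale, just short of 2-fold. LS_39 had the fewest transmitter markers of its class, with 9.25 FPKM of Gad1 and Gad2 against 95.1 to 692 FPKM in the other 3, and 5.15 FPKM of neuronal markers. All 8 astrocyte and 4 microglia markers had a read in both classes. The summed astrocyte markers had a median of 240 FPKM (range 108 to 489) in GABA-marked and 93.5 FPKM (range 17.8 to 1249) in glutamate-marked cells, and the summed microglia markers 333 FPKM (range 0 to 931) and 66.8 FPKM (range 0 to 1241). Their part in the Atp1b2 difference was not tested.

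Atp1b1 was at similar levels in both classes. It was 571, 306, 216 and 0.318 FPKM in the GABA-marked LS cells (mean 273 ± 236 FPKM) and ran from 1.71 through a median of 250 to 429 FPKM in the glutamate-marked cells (mean 223 ± 128 FPKM, reads in 30 of 30). The log2 ratio was -0.30. Atp1b3 was 197, 134, 90.4 and 0 FPKM in the GABA-marked cells and had a mean of 93.4 ± 89.5 FPKM in the glutamate-marked cells, a log2 ratio of -0.17. LS_39, whose Atp1b2 was the highest of the 35 LS cells, had the lowest Atp1b1 of this class, and LS_14, with the highest Atp1b1, had no Atp1b3 read. The Atp1a4 log2 ratio of -3.83 rested on LS_9 and was 0.15 without it.

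The comparison of LS with NS was repeated within each class. In GABA-marked cells (4 LS and 6 NS) the LS mean of Atp1b1 was 273 ± 236 FPKM and the NS mean 42.2 ± 91.8 FPKM (log2 2.69). Only 2 of the 6 NS cells held an Atp1b1 read, and 92.9% of these NS reads lay in NS_12. Atp1b2 averaged 195 ± 213 and 49.7 ± 49.1 FPKM (log2 1.97), and Atp1b3 averaged 105 ± 82.6 and 97.8 ± 190 FPKM (log2 0.11). Here 42% of 13402 genes were at least 2 times higher and 42.5% at least 2 times lower in LS cells, so most genes passed 2-fold. The Atp1a4 log2 ratio of 4.95 rested on LS_9, without which the LS mean was 0.502 FPKM against 0.256 FPKM in NS cells, from 1 read (log2 0.97). Without LS_9 the Atp1b3 ratio was -0.03. Of the GABA-marked NS cells, NS_6, NS_7 and NS_11 had only 3.01, 0.587 and 1.44 FPKM of summed neuronal markers. Their receptor genes stood at 98.7%, 95.6% and 105% of an even spread. NS_12, NS_13 and NS_16 had 269, 1101 and 387 FPKM of these markers. Among the GABA-marked LS cells, LS_39 had only 5.15 FPKM. The part of these low marker levels in the ratios was not tested. Only 2 NS cells were glutamate-marked. NS_8 had 20.8 FPKM of Atp1b2 and no read of Atp1b1 or Atp1b3, and NS_9 had 8.32 FPKM of Atp1b2, 23.4 FPKM of Atp1b3 and no Atp1b1. NS_8 sat near the class limit, with 28.03 FPKM of glutamate against 19.8 FPKM of GABA markers. NS_9 had low values of both, at 3.27 against 0.340 FPKM. Neither met a 10-fold margin between the classes. Both cells were at 0 for Snap25, Syt1 and Tubb3, which averaged 297, 175 and 152 FPKM in the glutamate-marked LS cells. Rbfox3, the remaining neuronal marker, was read in both, at 16.7 FPKM in NS_8 and 9.28 FPKM in NS_9. No Atp1b1 read was found over these 2 cells, against a mean of 223 FPKM in the LS cells. A floor of 3 reads over the group would be 1.23 FPKM. Amplified reads of 2 cells are not independent molecules, so no minimum fold can be drawn from it. Receptor genes stood at 113% of an even spread in NS_8 and at 48.7% in NS_9. Atp1b2 was higher in the LS cells by 3.46 times and Atp1b3 by 7.97 times, where 47.7% of 15673 genes were at least 2 times higher and 35% at least 2 times lower. Atp1a4 was lower there (log2 -5.16), again through NS_8 alone.

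Cells were finally divided by astrocyte markers, the kind of mark the study used to set cells aside. Among the 60 cells that passed the technical filters, 10 had reads of all of Gfap, S100b and Aqp4 and were called astrocyte-marked. The filter rebuilt here removed these cells, and none entered the comparisons above. Atp1b1 was lower in the astrocyte-marked cells, at 63.5 ± 72.7 FPKM against 180 ± 157 FPKM in the other 50, a log2 ratio of -1.50. As background, 46.6% of 16875 genes were at least 2 times lower and 16.5% at least 2 times higher in astrocyte-marked cells. Atp1b2 averaged 96.9 ± 132 against 56.2 ± 90.7 FPKM (log2 0.79) and Atp1b3 averaged 136 ± 169 against 89.4 ± 107 FPKM (log2 0.61), both within the spread between cells.

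Within LS cells alone the same directions held for the beta isoforms. In the 7 astrocyte-marked LS cells Atp1b1 ran from 0 through a median of 83.3 to 211 FPKM (mean 90.5 ± 71.5 FPKM), against a median of 244 FPKM (mean 227 ± 146 FPKM) in the other 37, of which 21 lay above the highest astrocyte-marked cell. The log2 ratio was -1.33. Atp1b2, the isoform with the glial association, was read in 7 of 7 astrocyte-marked LS cells and in 32 of the other 37. The medians of Atp1b2 were 68.2 FPKM and 32.4 FPKM (log2 ratio of means 1.03). Its values split, with LS_16 and LS_46 at 340 and 338 FPKM. Atp1b3 had a median of 165 FPKM against 65.4 FPKM (log2 ratio of means 1.04), led by LS_46 at 517 FPKM. The summed neuronal markers moved with this division, with a median of 174 FPKM in the astrocyte-marked LS cells and 637 FPKM in the others.

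The levels did not follow the number of astrocyte markers in order. In LS cells with 0, 1, 2 and 3 of the markers (7, 13, 17 and 7 cells) the median of Atp1b1 was 286, 198, 244 and 83.3 FPKM. The median of Atp1b2 was 59.0, 34.8, 31.8 and 68.2 FPKM, and that of Atp1b3 65.4, 100.5, 35.4 and 165 FPKM. Atp1a4 was read in 0, 0, 5 and 3 cells of these sets. Counts of 0 among 7 and 13 cells allow a share of up to 40.96% and 24.7% (exact binomial).

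**Figure D5:**
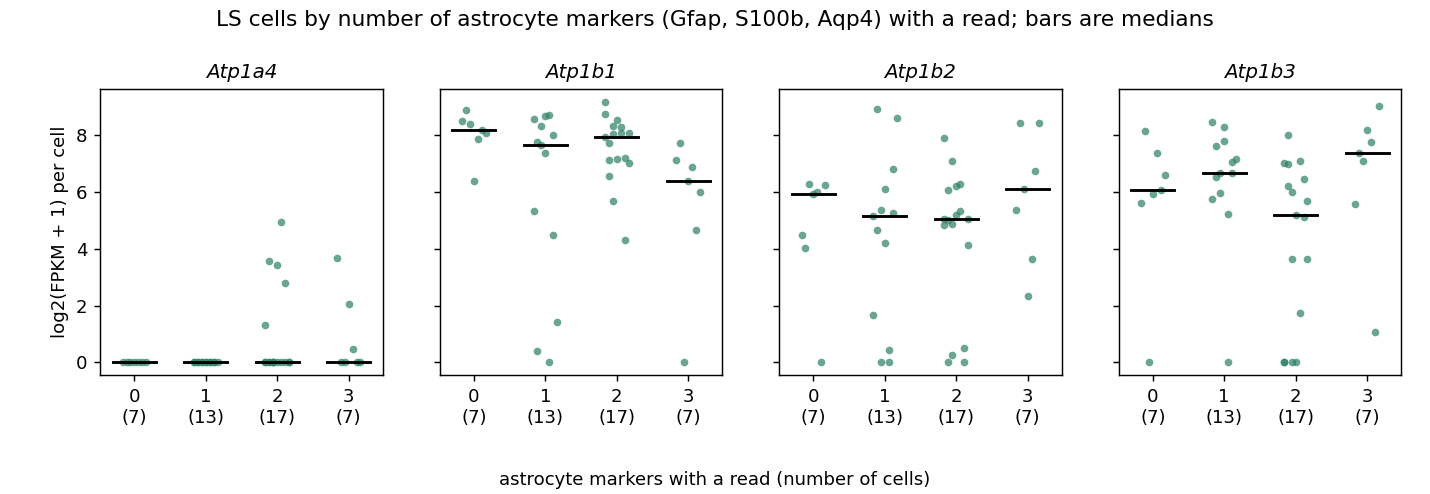
Level of each isoform, as log2(FPKM + 1), in LS cells that passed the technical filters, by the number of the astrocyte markers Gfap, S100b and Aqp4 with a read (7, 13, 17 and 7 cells); each point is a cell and each bar a median. The Atp1b1 median is 83.3 FPKM with all 3 markers and at least 198 FPKM with fewer.

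Other genes of sodium and calcium transport were read for comparison. Of 31 genes, 12 were at least 2 times higher and 13 at least 2 times lower in LS cells, shares close to the background of all genes. That background was 33.8% higher and 38.9% lower, and it applies to each smaller set below. The median log2 ratio was 0.22 against -0.20 for all genes. Among the FXYD proteins, small membrane proteins that bind the Na/K-ATPase and tune its kinetics, 3 of 7 were higher and 3 lower. Fxyd7, a brain member, had an LS mean of 110 ± 149 FPKM and an NS mean of 86.9 ± 229 FPKM. The LS median of Fxyd7 was 89.9 FPKM, whereas the NS median was 0, with reads in 4 of 12 NS cells. Fxyd6 was at 67.9 ± 108 and 7.76 ± 16.7 FPKM (log2 3.13), and Fxyd5 at 41.9 ± 65.7 and 3.93 ± 12.1 FPKM (log2 3.41). By its mean Fxyd1, or phospholemman, ran the other way, with LS at 23.6 ± 35.1 FPKM below NS at 157 ± 294 FPKM (log2 -2.73). Its medians had the opposite order, the LS median being 9.47 FPKM and the NS median 1.59 FPKM. The NS mean was led by NS_15 at 789 FPKM, the next cell being at 754 FPKM.

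Of the 7 calcium pumps 3 were higher and 1 lower in LS cells. Atp2a2, which refills the endoplasmic reticulum, was read in 35 of 35 LS cells and 4 of 12 NS cells, at 34.3 ± 31.3 and 0.766 ± 1.64 FPKM (log2 5.48). Atp2b1, a plasma membrane pump, was at 84.9 ± 56.2 and 23.5 ± 50.1 FPKM (log2 1.85). Of the 9 sodium/calcium exchangers 4 were higher and 3 lower, and of the 4 Nkain genes, whose products interact with the beta subunit, 2 were higher and 2 lower. Among these Nkain4 averaged 4.69 ± 13.7 FPKM over LS and 41.3 ± 139 FPKM over NS cells (log2 -3.14), the latter led by a single cell of 483 FPKM. The 4 other subunits of Na/K- and H/K-ATPases, Atp1b4, Atp4a, Atp4b and Atp12a, were all at least 2 times lower in LS cells, with LS means of at most 1.74 FPKM. Both group medians were 0 for each of them. Reads were found in 2, 3, 1 and 2 of the 12 NS cells, in that order, and in 2, 5, 4 and 4 of the 35 LS cells. These ratios therefore rested on few cells.

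The genes whose pattern over the 35 LS cells was most like that of each beta isoform were taken by Pearson correlation of log2(FPKM + 1) among 6121 other genes read in at least 50% of these cells. For Atp1b1 they were Ngfrap1 (0.84), Tecr (0.82), Ndufa5 (0.79), Prnp (0.78) and Tubb2a (0.78), where the median over all compared genes was 0.21. For Atp1b2 they were Ube2b (0.66), C1qbp (0.64), Vdac1 (0.57), Ppp1ca (0.55) and Fxyd6 (0.54), with a median of -0.03. For Atp1b3 they included Tnpo1 (0.56), Ccni (0.53), Stt3a (0.53) and Uap1l1 (0.52), with a median of 0.01.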

How the data were processed

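Single-cell RNA-seq was measured in 46 LS and 17 NS cells. The authors trimmed reads with AfterQC, aligned them to GRCm38 with STAR 2.5.3a, counted reads per gene with featureCounts and computed FPKM with scater; the deposited FPKM values cover protein-coding genes. They are whole reads divided by exon length and by a per-cell total whose mean over cells is 1000000, so only their ratios are fixed.

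Reads were recovered from these steps with GENCODE M21 exon lengths or a solved length; 99.8% of values under 200 reads in solved genes came out whole within 0.01 reads, and 2108 genes stayed unsolved. The 4 rows with a repeated name were left out. The study's filters were rebuilt: LS_1 and NS_1 (low cDNA), fewer than 1000 genes over 1 FPKM, a mitochondrial share over 25%, and positive astrocyte, oligodendrocyte or mixed transmitter scores. No cell exceeded the mitochondrial limit in the deposited values. This kept fewer LS cells than the study did. A difference was counted from 2-fold among genes with a mean of at least 1 FPKM. Genes named were the members, the listed markers, pathway genes with a mean of at least 20 FPKM in either group, and the 5 most correlated genes of each member read in at least 50% of LS cells. Some genes of these lists, among them further alpha subunit genes, are not reported here. The members and lists were chosen with earlier results of these data known. Scripts ran under Python 3.11.15 with SciPy 1.17.1, NumPy 2.4.6 and pandas 2.3.3; the read recovery was checked on simulated data. Alternatives covered the cells kept, the summary, the normalization, depth and marker rules.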

Additional observations from a re-analysis of the deposited data

Results flagged for a closer look

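In 22 sets of 4 to 10 cells the highest and lowest cells were compared with the others by Dixon's test, which chance alone flags in about 1 of 20 sets, and levels with many cells at 0 are prone to such gaps. In GABA-marked LS cells, LS_9 stood apart for Atp1a4 at 30.04 FPKM, the next cell being at 1.51 FPKM. In GABA-marked NS cells, NS_6 stood apart for Atp1a4 at 1.54 FPKM, from a single read. NS_12 stood apart in the same set for Atp1b1 at 229 FPKM (next 24.8) and for Atp1b3 at 474 FPKM (next 111). Among the 4 NS cells with no transmitter marker, NS_14 stood apart for Atp1b1 at 49.8 FPKM, NS_2 for Atp1b2 at 119 FPKM (next 10.8) and NS_4 for Atp1b3 at 291 FPKM (next 1.58). Among astrocyte-marked cells LS_5 stood apart for Atp1a4 at 11.7 FPKM (next 3.13), both over all 10 cells and over the 7 LS cells.

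Cells left out by the filters held 4 values above the highest retained cell of their group. They were Atp1b2 at 715 FPKM in LS_1, Atp1b3 at 1346 FPKM in LS_2 and at 517 FPKM in LS_46, and Atp1b1 at 304 FPKM in NS_17.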

How the results depend on the processing

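Of 129 alternative values of ratios and beta shares, 121 moved by less than the spread between cells, a wide margin in cells this variable, and all 40 values of shares of cells stayed within their binomial intervals. The log2 ratio of LS to NS for Atp1b1 was above 1 under all 14 alternatives that gave a value, from 1.51 among cells rich in neuronal markers to 7.80 with means of log2(FPKM + 0.1), the only value beyond the spread. For Atp1b3 the same pseudocount gave 3.81, medians 6.16, and cells with low receptor genes 6.90. For Atp1a4 the ratio turned to 4.95 in GABA-marked cells (0.97 without LS_9) and to 3.30 without NS_8. Its glutamate-marked to GABA-marked ratio turned to 0.15 without LS_9. For Atp1b2 the LS to NS ratio passed 2-fold under 8 of 16 alternatives, such as 1.45 with all 63 cells, and was 0.04 in cells with at least 3000 genes over 1 FPKM.

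Leaving out each cell in turn gave LS to NS ranges of -2.68 to 3.30 for Atp1a4, 3.01 to 5.03 for Atp1b1, 0.49 to 1.09 for Atp1b2 and 0.17 to 1.24 for Atp1b3. The glutamate-marked to GABA-marked ranges were -5.28 to 0.15, -0.71 to 0.36, -2.33 to -0.996 and -0.59 to 0.32 in the same order. The astrocyte-marked ranges were -2.38 to 0.28, -1.93 to -1.35, 0.32 to 1.03 and 0.07 to 0.76. LS_4, LS_5, LS_9 and NS_8 moved an Atp1a4 value by over 1.5 times, NS_12 and LS_14 an Atp1b1 value, LS_39 an Atp1b2 value and NS_12 an Atp1b3 value. No ratio was formed where a group's value was 0, as for medians of Atp1a4. The causes were not tested. No paired analysis was possible because the replicate numbers of LS and NS cells are only names and no test was made. Over the whole LS and NS groups, depth limited detection most for Atp1b3 in NS cells, from 58.3% to 40.4% when thinned to 100000 reads. Within the 4 GABA-marked LS cells Atp1b1 went from 100% to 77.7%. The mice behind the cells cannot be told apart. The neuronal-marker limit and the sets without NS_12 or LS_9 were chosen after seeing the data.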
